A study of Rattus norvegicus with 6 samples.

Results

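The 10 ligand and receptor genes described here, of the bone morphogenetic protein (BMP) and transforming growth factor beta (TGF-beta) pathways, were followed in whole ovaries of neonatal rats after an immune challenge. The members were Bmp2, Bmp4, Bmp7, Bmpr1a, Bmpr1b, Bmpr2, Tgfb1, Tgfb2, Tgfb3 and Tgfbr2, and they were found on the arrays through the RefSeq accession of each probe. All 10 had a probe. Tgfb2 and Tgfbr2 had 2 probes each, which gave 12 probes of the 30367 tested and 10 of the 15154 genes that could be named. Female Wistar pups of both groups were untreated apart from intraperitoneal injections on PNDs 3 and 5, and their ovaries were collected on PND 7. The LPS group received lipopolysaccharide of Salmonella Enteritidis, a component of the bacterial outer membrane that engages the receptor TLR4, at 0.05 mg/kg. The saline group received the same volume of non-pyrogenic saline. Ovarian RNA of each group was hybridised to 3 single-colour Agilent arrays, 6 in all on 1 slide. Whole litters were allocated to a treatment and few litters gave the ovaries, so litter and treatment cannot be told apart from these arrays, and the litter of each array was not used here.

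BMPs and TGF-betas are secreted dimers that bring together type I and type II receptor kinases on the cell surface. The type II receptor phosphorylates the type I receptor, which then phosphorylates Smad proteins that move to the nucleus with Smad4 and regulate transcription. BMP receptors act mainly through Smad1, Smad5 and Smad9, and TGF-beta receptors mainly through Smad2 and Smad3. In the ovary, ligands of this family are made by oocytes, granulosa cells and theca or stromal cells, and they act between these cells during the formation and early growth of follicles.

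Values are log2 signals relative to the 75th percentile of the same array, so that 0 is that percentile and lower values are dimmer signals. Signals of different genes were not compared with each other. Probes of the same gene were compared only to choose the brightest. In the marker sums below signals were added over probes, so bright probes weigh most. The scanner software judges each spot against its background, and a probe that passed on every array is called bright below. Of the member genes 9 were bright, and Bmpr1b failed on saline replicate 2 only. Whole tissue was measured, so fewer cells of a type and less RNA per cell cannot be told apart in any value below. All 8 oocyte markers with a probe were bright, as were 7 of the 8 granulosa cell markers. Saline replicates 2 and 3 stood apart from the other 4 arrays and carried transcripts of the adrenal gland. The summed signal of 10 adrenal cortex markers was 341 and 432 on these 2 arrays, in units of the 75th percentile, and 6.67 to 17.9 on the others. That of 9 adrenal medulla markers was 97.6 and 59.4, against 3.50 to 6.36. Chga, Chgb, Mc2r, Akr1b7 and Cyp11b1, which define these tissues, were well above background on saline replicates 2 and 3 alone. LPS replicate 1 and saline replicate 1 were alike in another respect, with summed signals of 85.9 and 85.3 for 8 markers of oviduct and surface epithelium against 33.3 to 51.5 on the other arrays. At an unadjusted p under 0.05 from limma, 2.46% of all probes were higher with LPS and 14.1% lower (1.85% and 2.39% of bright ones). Higher at that level were Csf1r, Adgre1 and Mrc1 of 12 macrophage markers. Kitlg of 8 granulosa cell markers and Tcf21 of 10 stroma and theca markers were also higher. In these lists 3, 2 and 3 markers had negative differences, and list medians were 0.25, 0.16 and 0.25. Spots of Kitlg and Adgre1 had an SD of up to 1.25 and 1.22 within an array. Alas2, Slc4a1 and Hbb-b1 of 6 red blood cell markers were lower. So were 8 of 9 adrenal medulla markers, 6 of 10 adrenal cortex markers and Lhcgr of the stroma list, which was below background on every array. No oocyte, epithelium, kidney or muscle marker above background reached that level. The part of these cell types in the members' values was not tested. Where leaving out saline replicates 2 and 3 moved a member or a pathway gene described below, the value without them is given. It is not given for the dimmer probes of Tgfb2 and Tgfbr2 or for Smad5, for which it was not computed.

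No member passed the test after adjustment, and neither did any other probe over the 6 arrays. Without saline replicate 1, 290 probes had an adjusted p under 0.05, but the controls were then only the 2 saline arrays that carried adrenal transcripts. When the row of the slide was fitted as a block 5 probes did, and 0 of the members did in either case. Adjusted p-values of the members from limma lay between 0.278 and 0.980, and 0.0% of all 30367 probes had an adjusted p under 0.05. At an unadjusted p under 0.05, 2 of the 10 genes differed, Bmp2 and Bmpr2, both with lower signal on the LPS arrays. This share stood beside 16.5% of all probes, 14.1% lower and 2.46% higher, and beside 4.24% of the 18093 bright probes, 2.39% lower and 1.85% higher. The excess of lower calls lay in dim probes, and the 7568 probes that passed the background criterion nowhere had a median difference of -0.57, LPS minus saline. No member differed by 2-fold together with an unadjusted p under 0.05, the criterion of the methods, which 1.69% of all probes met. LPS and saline arrays did not overlap for 3 members, next to 23.4% of all probes and 11.4% of the bright ones. Bmp2 and Bmpr2 were the members lower with LPS (18.4% of all probes and 5.75% of bright ones), and Tgfb3 the member higher with LPS (5.02% and 5.69%). The median difference of the 10 genes, LPS minus saline, was 0.20 on the log2 scale with 7 positive, compared with a median of -0.04 over all probes and 0.02 over the bright ones. An exact permutation test of 3 arrays against 3 cannot give a p below 0.1, so the p-values below come from limma.

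**Figure D1:**
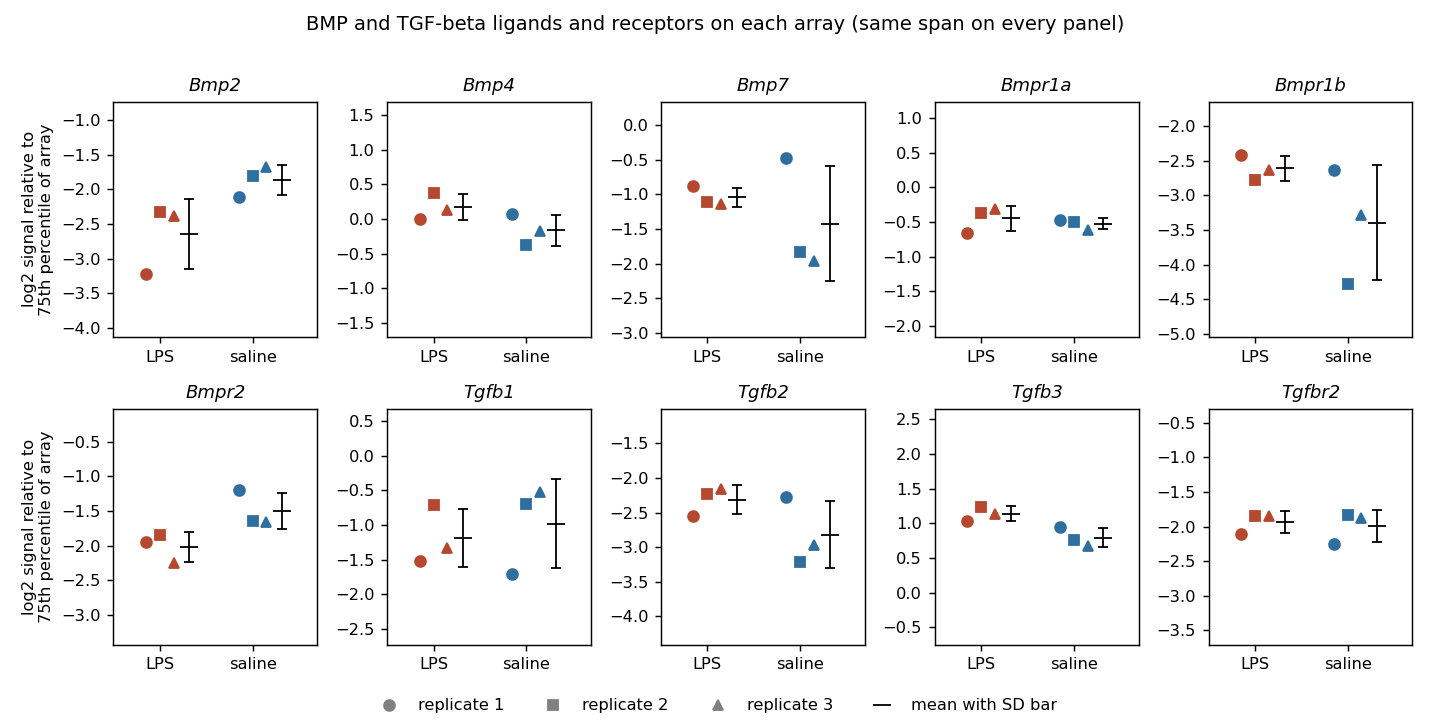
Signal of each member gene on the 3 LPS arrays (red) and the 3 saline arrays (blue), as log2 relative to the 75th percentile of the array on the vertical axis, with the mean and SD of each group in black. All panels span the same log2 range. Only Bmp2, Bmpr2 and Tgfb3 show groups that do not overlap, and Bmp7, Bmpr1b and Tgfb1 show saline arrays more than 1 log2 unit apart.

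Upstream sequence was available from RefSeq for 7 of the 10 genes, all but Bmp2, Bmp7 and Bmpr1b. Printed here are the 250 bases before the annotated start of Bmpr2 and Tgfb3, whose groups did not overlap, and of Bmp4, which among the 7 held the most kinds of the 4 motifs capitalised. Capitals mark matches, on either strand, to GGCGCC (a GC-rich element bound by BMP Smads), CAGACA (which contains the Smad-binding core), TGANTCA (AP-1) and GGGNNNNNCC (the outer bases of many NF-kappaB sites). TATAAA was also searched and is not capitalised. Overlapping matches run together.
Bmpr2 (GRCr8, chr9:68686566-68686815, forward strand): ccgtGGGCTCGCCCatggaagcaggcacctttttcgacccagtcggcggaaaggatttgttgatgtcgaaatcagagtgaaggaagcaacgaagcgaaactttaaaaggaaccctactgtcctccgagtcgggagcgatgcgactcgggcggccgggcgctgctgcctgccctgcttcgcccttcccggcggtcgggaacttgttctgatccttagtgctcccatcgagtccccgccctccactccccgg
Tgfb3 (GRCr8, chr6:111456947-111457196, reverse strand): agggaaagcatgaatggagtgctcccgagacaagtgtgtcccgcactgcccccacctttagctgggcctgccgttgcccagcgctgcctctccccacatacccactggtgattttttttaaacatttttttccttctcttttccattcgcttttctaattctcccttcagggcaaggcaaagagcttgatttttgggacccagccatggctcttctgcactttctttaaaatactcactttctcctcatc
Bmp4 (GRCr8, chr15:22101934-22102183, reverse strand): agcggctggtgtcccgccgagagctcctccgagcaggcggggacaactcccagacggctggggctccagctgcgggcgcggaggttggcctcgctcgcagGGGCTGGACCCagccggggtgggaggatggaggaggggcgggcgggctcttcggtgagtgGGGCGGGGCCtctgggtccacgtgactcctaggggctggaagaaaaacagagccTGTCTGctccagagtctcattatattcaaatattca
Bmpr2 held a single GGGNNNNNCC match at position -246, counted back from the start, and Tgfb3 held none of the 5 motifs. Bmp4 held CAGACA at position -36 in reverse orientation and 3 matches to GGGNNNNNCC, of which 2 run together. GGGNNNNNCC is a permissive pattern, present in 42.3% of 33469 rat promoters of the same length and in 4 of the 7 member promoters. CAGACA was present in 17.2% of all promoters and in 1 of the 7, TGANTCA in 6.34% and in 1 (Bmpr1a), TATAAA in 12.9% and in 1 (Bmpr1a), and GGCGCC in 8.69% and in none. GC content of the member promoters ran from 28.4% in Bmpr1a to 66.4% in Bmp4, with a median of 60.0% beside 51.2% over all promoters. A match describes letters in this window and says nothing of binding.

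Among the BMP ligands, Bmp2 was lower on every LPS array than on any saline array, while Bmp4 and Bmp7 showed positive differences that lay within the spread between arrays. Bmp2 (NM_017178), a ligand expressed by granulosa cells and other ovarian cells, had signals of -3.22, -2.32 and -2.38 on LPS replicates 1, 2 and 3. On saline replicates 1, 2 and 3 it had signals of -2.11, -1.80 and -1.68. LPS replicate 1 was far below the rest, and the remaining LPS arrays lay just under saline replicate 1. The mean was -2.64 ± 0.50 (SD, n = 3) with LPS and -1.86 ± 0.22 (SD, n = 3) with saline. The log2 difference was -0.78 (standard error 0.29, 95% interval -1.46 to -0.10, unadjusted p = 0.0312 and adjusted p = 0.278 from limma), or 1.72-fold lower with LPS. Without LPS replicate 1 it shrank to -0.49 (unadjusted p = 0.0582), and with only saline replicate 1 in place of the 3 saline arrays it was -0.53 (unadjusted p = 0.298). LPS replicate 1 also had the lowest summed signals of the 8 oocyte markers, 16.8 where the highest array had 47.0, and of the 8 granulosa cell markers, 17.9 where the highest had 67.6, and their part in the result was not tested. The 2 spots of the Bmp2 probe had an SD of 0.15 to 0.21 within an array.

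Bmp4 (NM_012827), which is made by theca and stromal cells, measured 0.01, 0.38 and 0.13 with LPS, compared with 0.07, -0.37 and -0.17 with saline. The highest array was LPS replicate 2 and the lowest saline replicate 2, and LPS replicate 1 lay below saline replicate 1, so the groups overlapped. The difference was 0.33 (95% interval -0.14 to 0.80, adjusted p = 0.507). With saline replicate 1 alone as the control it was 0.10.

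Bmp7 (NM_001191856), another ligand of the theca and stroma, had signals of -0.88, -1.11 and -1.14 on the LPS arrays, which lay close together. Saline replicate 1 was the highest of all at -0.47, and saline replicates 2 and 3 were the lowest at -1.84 and -1.95. The difference of 0.38 (95% interval -0.58 to 1.34, adjusted p = 0.807) therefore averaged saline arrays on both sides of the LPS arrays. It was 0.85 (unadjusted p = 0.00416) without saline replicate 1 and turned to -0.57 (unadjusted p = 0.0862) when saline replicates 2 and 3 were both left out. No direction can be given for Bmp7 apart from the arrays that carried adrenal transcripts. The summed oviduct and surface epithelium markers were 85.9 on LPS replicate 1 and 85.3 on saline replicate 1. They were 51.5 and 46.7 on LPS replicates 2 and 3, and lowest at 33.3 and 43.0 on saline replicates 2 and 3. The part of either marker pattern in the Bmp7 values was not tested.

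Among the BMP receptors, the type II receptor Bmpr2 was lower on the LPS arrays, the type I receptor Bmpr1b was higher but with a wide error, and the type I receptor Bmpr1a differed little. Bmpr2 (NM_080407), the dedicated type II receptor for BMPs and also a receptor for the oocyte ligands Gdf9 and Bmp15, had signals of -1.95, -1.84 and -2.26 on the LPS arrays. On the saline arrays it had signals of -1.20, -1.64 and -1.66. The groups did not overlap, and the smallest gap, between LPS replicate 2 and saline replicate 3, was narrow next to the spread within either group. Means were -2.02 ± 0.22 (SD, n = 3) with LPS and -1.50 ± 0.26 (SD, n = 3) with saline. The log2 difference was -0.51 (standard error 0.21, 95% interval -1.02 to -0.01, unadjusted p = 0.0472 and adjusted p = 0.298 from limma), or 1.43-fold lower. With saline replicate 1 alone as the control it was -0.82 (unadjusted p = 0.0424). The unadjusted p rose above 0.05 when any single array was left out, to between 0.0576 and 0.142.

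Bmpr1b (NM_001024259), the type I receptor of granulosa cells and oocytes, had signals of -2.42, -2.77 and -2.63 on the LPS arrays. Its signals on the saline arrays were -2.63, -4.27 and -3.28, and the probe was not well above background on saline replicate 2. Saline replicate 1 fell within the LPS arrays, while saline replicates 2 and 3 lay below all of them. Its log2 difference of 0.79 (95% interval -0.19 to 1.76, adjusted p = 0.410) was the most positive among the members. With the replicate number as a block, a pairing that rests only on likeness between these same arrays, the unadjusted p from limma was 0.0453. Without the block it was 0.0972. The difference was 1.17 (unadjusted p = 0.0134) without saline replicate 1 and 0.35 without saline replicate 2. It came to 0.02 with saline replicate 1 as the control alone. Without background correction it was 0.14. Bmpr1a (NM_030849), the widely expressed type I receptor, measured -0.66, -0.37 and -0.31 with LPS and -0.47, -0.49 and -0.61 with saline. The saline arrays lay inside the range of the LPS arrays. Its difference of 0.08 had a 95% interval of -0.33 to 0.49, and was 0.02 without saline replicates 2 and 3.

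The 3 TGF-beta ligands did not differ in the same way. Tgfb3 was the only one whose groups did not overlap, and Tgfb1 spread widely within both groups. The brighter of 2 Tgfb2 probes was lowest on saline replicates 2 and 3, and the dimmer was not. Tgfb3 (NM_013174) measured 1.03, 1.24 and 1.14 with LPS, compared with 0.94, 0.76 and 0.68 with saline. Every LPS array was above every saline array, although LPS replicate 1 and saline replicate 1 were close. The difference was 0.34 (standard error 0.17, 95% interval -0.05 to 0.74, unadjusted p = 0.0798 and adjusted p = 0.365 from limma), or 1.27-fold. It was 0.19 with saline replicate 1 alone as the control. Its unadjusted p was under 0.05 in 5 of the 20 alternatives, all in processing or test, among them quantile normalization (0.0213) and normexp background correction (0.0124).

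Tgfb2 (NM_031131) was read by 2 probes. The brighter, with 1 spot per array, gave -2.55, -2.24 and -2.16 with LPS and -2.28, -3.21 and -2.97 with saline. Saline replicate 1 again lay among the LPS arrays, and saline replicates 2 and 3 were lowest. Its difference of 0.51 (95% interval -0.16 to 1.17, adjusted p = 0.452) became -0.04 with saline replicate 1 as the only control. The dimmer probe gave -3.37, -3.66 and -3.69 with LPS and -3.20, -4.21 and -3.47 with saline, a difference of 0.05. On this probe saline replicate 1 was the highest array and saline replicate 3 lay above LPS replicates 2 and 3. The spots on saline replicate 2 had an SD of 0.86. The probes disagreed in size, so the estimate for Tgfb2 depends on which is read.

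Tgfb1 (NM_021578), the ligand best known for its effects on immune cells and matrix, measured -1.52, -0.72 and -1.33 with LPS, compared with -1.71, -0.70 and -0.53 with saline. Both arrays numbered 1 were low, both arrays numbered 2 were high, and the arrays numbered 3 stood apart. Its difference of -0.21 (95% interval -1.10 to 0.68, adjusted p = 0.923) changed sign to 0.52 without saline replicates 2 and 3. This spread was between arrays and not between spots, because Tgfb1 had 9 or 10 usable spots per array with a spot SD of 0.03 to 0.12. Tgfbr2 (NM_031132), the type II receptor for TGF-beta, measured -2.11, -1.85 and -1.84 with LPS and -2.25, -1.84 and -1.87 with saline. The arrays numbered 1 were the lowest of each group and all others were nearly equal. The difference was 0.05 (95% interval -0.41 to 0.51), and 0.31 (unadjusted p = 0.294) without saline replicates 2 and 3. A dimmer probe of Tgfbr2 was not well above background on saline replicates 1 and 2 and gave 0.57 with a 95% interval of -0.61 to 1.75.

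**Figure D2:**
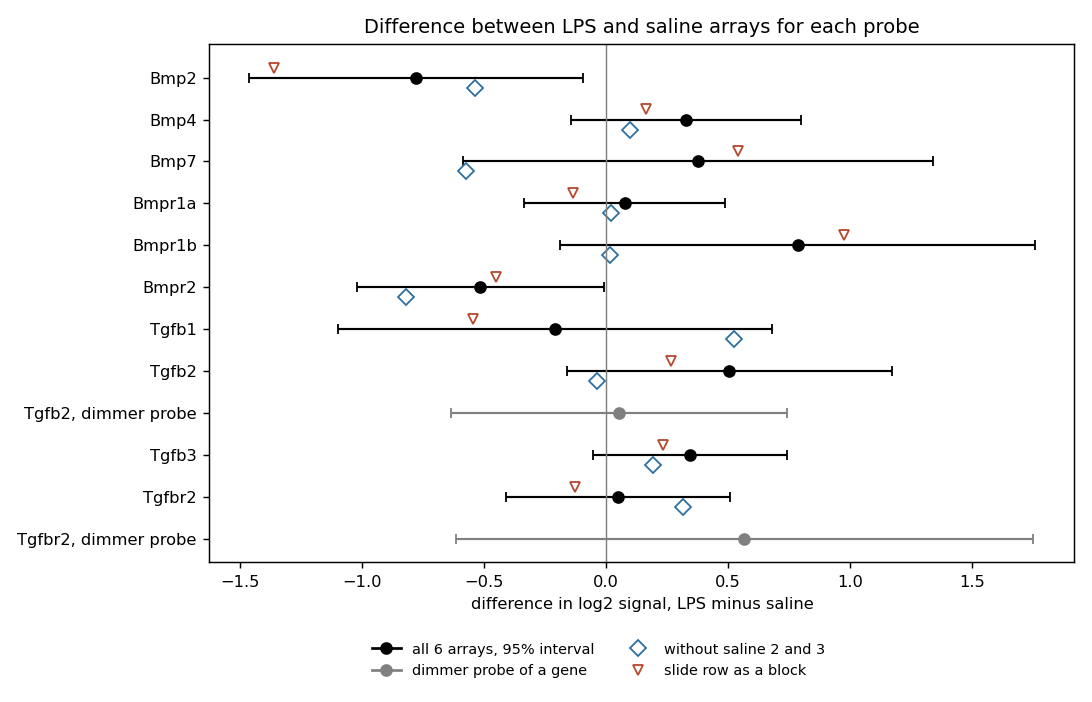
Difference in log2 signal, LPS minus saline, on the horizontal axis for the 12 probes, with 95% intervals from limma over all 6 arrays. Open diamonds use saline replicate 1 as the only control and open triangles fit the slide row as a block. Intervals of the Bmp2 and Bmpr2 probes alone lie below 0, and the diamonds of Bmp7, Tgfb1 and Tgfb2 lie on the other side of 0 from their main values.

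The order of the arrays was shared by several members. Saline replicates 2 and 3 were the 2 lowest of the 6 arrays for 5 members, Bmp4, Bmp7, Bmpr1b, Tgfb2 (brighter probe only) and Tgfb3. They were so for 11.6% of all probes and 15.2% of the bright ones. They were the 2 highest for Bmp2 and Tgfb1, next to 17.2% and 13.3%. For Bmpr1a, Bmpr2 and Tgfbr2 neither order was seen. With saline replicates 2 and 3 left out, the median difference of the 10 genes was 0.02 in place of 0.20. The median over all probes was then -0.15 in place of -0.04. Without normalization between arrays every member's difference rose by the same amount, as the median difference of all probes moved from -0.04 to 0.34. Bmp2 (-0.40), Bmpr2 (-0.14) and Tgfb1 (0.17) then lay below that median, as they had before, and Bmpr1b and Tgfb2 had unadjusted p-values of 0.00838 and 0.0420. Over all probes the split of higher and lower calls went from 746 and 4272 to 1606 and 238 without normalization and to 802 and 688 with quantile normalization. In the comparison without saline replicates 2 and 3 a single saline array stands against 3 LPS arrays and is assumed to vary as they do. On the slide, LPS replicates 2 and 3 lay in one row and the other 4 arrays in the other. With the row as a block, LPS replicate 1 alone, the lowest array for Bmp2, is compared with the 3 saline arrays beside it and is assumed to vary as the other arrays do. In that fit Bmp2 differed by -1.36 (unadjusted p = 0.00209) and Bmpr2 by -0.45 (unadjusted p = 0.202).

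**Figure D3:**
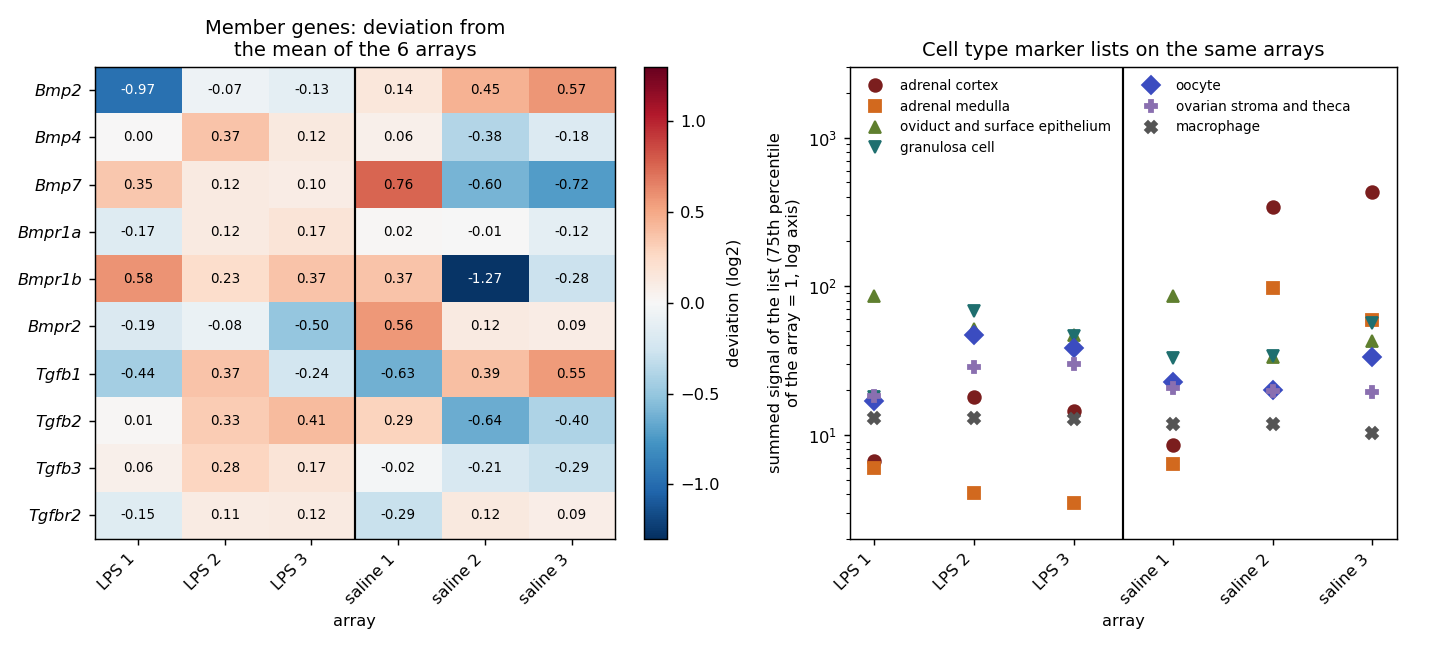
Left, deviation of each member gene on each array from its mean over the 6 arrays (log2, blue below and red above). Right, summed signal of 7 cell type marker lists on the same arrays, on a log axis in units of the 75th percentile of the array. Adrenal cortex markers reached 341 and 432 on saline replicates 2 and 3 and 17.9 at most elsewhere. Oviduct and surface epithelium markers were lowest on these arrays, at 33.3 and 43.0. The same arrays are the lowest for 5 member genes and for 15.2% of bright probes, and the highest for 2 member genes. A link between these was not tested.

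The member with the smallest unadjusted p among those bright on every array, Bmp2, was set against 10011 other named genes for likeness of pattern over the 6 arrays. The highest Pearson correlations were those of Chaf1b (r = 0.998), a subunit of the chromatin assembly factor, Tmem248 (0.995), the transcription factor gene E4f1 (0.992), Tax1bp1 (0.987), an adaptor in autophagy and NF-kappaB signaling, and Rusf1 (0.983). Each of them was lowest on LPS replicate 1 and had a small difference of its own, from -0.20 to -0.30. With so few arrays, a search over so many genes gives high correlations readily, so these values describe the order of the arrays. Among the members, Bmp2 correlated most with Tgfb1 (r = 0.61) and was most opposed to Bmpr1b (r = -0.69).

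Beyond the members, other genes of the same pathways were listed by role, and 95 of them had a probe. At an unadjusted p under 0.05, 3 were higher and 5 lower, 8.42% of the 95, next to 16.5% of all probes. Of the 95, 0 had an adjusted p under 0.05. All 5 lower genes, Bmp5, Grem1, Thbs1, Smad3 and Smad9, passed the background criterion on none of the 6 arrays, so no fold change is given for them. Measured in both groups, that is, above background on 1 array or more of each, were 85 genes. Of these, 2 had an unadjusted p under 0.05, next to 4.24% of the bright probes. Positive differences were found for 61 of the 85, with a median of 0.18, while 54.0% of the bright probes were positive. Over all 95 genes the median was 0.16, beside -0.04 over all probes. With saline replicates 2 and 3 left out these medians were -0.01 and -0.15.

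Among 10 other receptors and co-receptors, none had an unadjusted p under 0.05, and the median difference was 0.04. Acvr1, a type I receptor for BMPs, had the smallest p, with signals of -1.96, -1.97 and -1.44 after LPS and -2.18, -2.01 and -2.19 after saline. The groups were separate by a narrow margin, and the difference was 0.34 (standard error 0.21, unadjusted p = 0.146). Tgfbr1, the type I receptor that partners Tgfbr2, had -0.44, -0.63 and -0.65 with LPS and -0.55, -0.83 and -1.14 with saline. These overlapped, and its difference of 0.27 (standard error 0.20) fell to -0.02 without saline replicates 2 and 3.

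Among 17 other ligands, 2 were higher at an unadjusted p under 0.05. Bmp6, an oocyte and granulosa cell ligand, gave -3.73, -3.63 and -3.55 with LPS and -4.19, -4.34 and -3.86 with saline. Every LPS array was above every saline array, and the probe was well above background on 2 of the 3 saline arrays. The difference was 0.49 (standard error 0.19, adjusted p = 0.283), but without background correction it was 0.02. With saline replicate 1 as the only control it was 0.55 (unadjusted p = 0.0836). Gdf3, a ligand of the Nodal group, passed the background criterion with LPS on 3 of 3 arrays and with saline on 0 of 3. Its signals were -3.18, -4.53 and -4.75 with LPS and -4.60, -5.98 and -5.72 with saline, so LPS replicate 1 was high and saline replicate 1 fell among the LPS arrays. With saline signals raised to at least the dimmest signal called above background on the array, the LPS mean was 1.96-fold higher. This is not a lower limit, since the groups overlapped and the fitted 95% interval began at 0.02 on the log2 scale (adjusted p = 0.297 from limma). The fitted difference of Gdf3, 1.28, became 0.79 (unadjusted p = 0.111 from limma) without LPS replicate 1 and 0.44 without saline replicates 2 and 3. The oocyte ligands Gdf9 and Bmp15, which also belong to the oocyte list, were not named by the rule for this list.

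Of the 15 extracellular antagonists and the 11 genes of latent TGF-beta storage and activation, none measured in both groups had an unadjusted p under 0.05. Positive differences were found for 10 of 14 antagonists and 9 of 10 storage genes measured in both groups, with medians of 0.17 and 0.27. Fstl1, a follistatin-like glycoprotein that binds BMPs, gave 1.62, 2.10 and 2.53 with LPS and 1.46, 1.60 and 1.36 with saline. The groups just failed to overlap, and the difference was 0.61 (standard error 0.26, unadjusted p = 0.0524). It was 0.84 (unadjusted p = 0.00809) without LPS replicate 1, 0.38 without LPS replicate 3 and 0.14 in the fit with a block for slide row. Lrrc32, which holds latent TGF-beta on the cell surface, had -3.13, -3.19 and -3.44 with LPS and -4.72, -4.21 and -3.22 with saline. Saline replicate 3 lay among the LPS arrays, and the difference was 0.80 (standard error 0.38, unadjusted p = 0.0752). Without saline replicates 2 and 3 it was 1.47 (unadjusted p = 0.00382).

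Inside the cell, 6 of the 8 Smads were measured in both groups and none of these had an unadjusted p under 0.05. Their differences ran from -0.10 to 0.37, with 5 positive. Smad5, which carries BMP signals and is named here after its values were seen, was the only one of them whose groups did not overlap. Groups did not overlap for 10 of the 85 pathway genes measured in both groups, Smad5 included, and for 11.4% of bright probes. The difference of Smad5 was 0.32 (standard error 0.16, unadjusted p = 0.0844 from limma). Of the 14 intracellular regulators 12 were positive, with a median of 0.15 and none at an unadjusted p under 0.05. The ubiquitin ligase Wwp1 had -4.09, -4.46 and -3.81 with LPS and -5.77, -4.82 and -4.27 with saline. It was well above background on 1 saline array, and its difference of 0.83 had a standard error of 0.40. It was 1.64 (unadjusted p = 0.00666) with saline replicate 1 as the only control. Tab1, which links TGF-beta receptors to the kinase Map3k7, differed by 0.31 (standard error 0.26), and by 0.82 (unadjusted p = 0.0242) without saline replicates 2 and 3.

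All 7 BMP target genes measured in both groups had differences of 0 or more, with a median of 0.31, but none had an unadjusted p under 0.05. Msx1, a homeobox gene, gave 0.39, -1.54 and -2.25 with LPS and -1.54, -3.23 and -2.75 with saline. LPS replicate 1 stood well above all others, and saline replicate 1 fell among the LPS arrays. Msx2, its relative, had -0.42, -2.25 and -2.96 with LPS and -2.36, -3.92 and -3.06 with saline, with LPS replicate 1 again the highest. Differences were 1.38 (standard error 0.74, unadjusted p = 0.108) for Msx1 and 1.23 (standard error 0.70, unadjusted p = 0.122) for Msx2. With the replicate block, whose pairs rest only on likeness between these same arrays, the unadjusted p-values from limma were 0.0100 and 0.0326. Without LPS replicate 1 the differences were 0.61 and 0.51, and without saline replicates 2 and 3 they were 0.41 and 0.48. Markers of oviduct and surface epithelium were highest on the arrays numbered 1, whose part in these values was not tested.

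Among 12 TGF-beta target genes, Tgfbi was the 1 that was higher at an unadjusted p under 0.05. Tgfbi, a matrix protein induced by TGF-beta, gave 3.00, 3.37 and 3.27 with LPS and 2.99, 2.32 and 2.63 with saline. LPS replicate 1 and saline replicate 1 were close, and saline replicates 2 and 3 were lower. The difference was 0.57 (standard error 0.23, adjusted p = 0.290), which became 0.23 with saline replicate 1 as the only control, and the unadjusted p was 0.0726 with the replicate block. Tgfb1i1, a focal adhesion protein named for its induction by TGF-beta, differed by 0.42 (standard error 0.21, unadjusted p = 0.0894), and by 0.25 without saline replicates 2 and 3. The 11 target genes measured in both groups had a median difference of 0.14 with 6 positive.

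**Figure D4:**
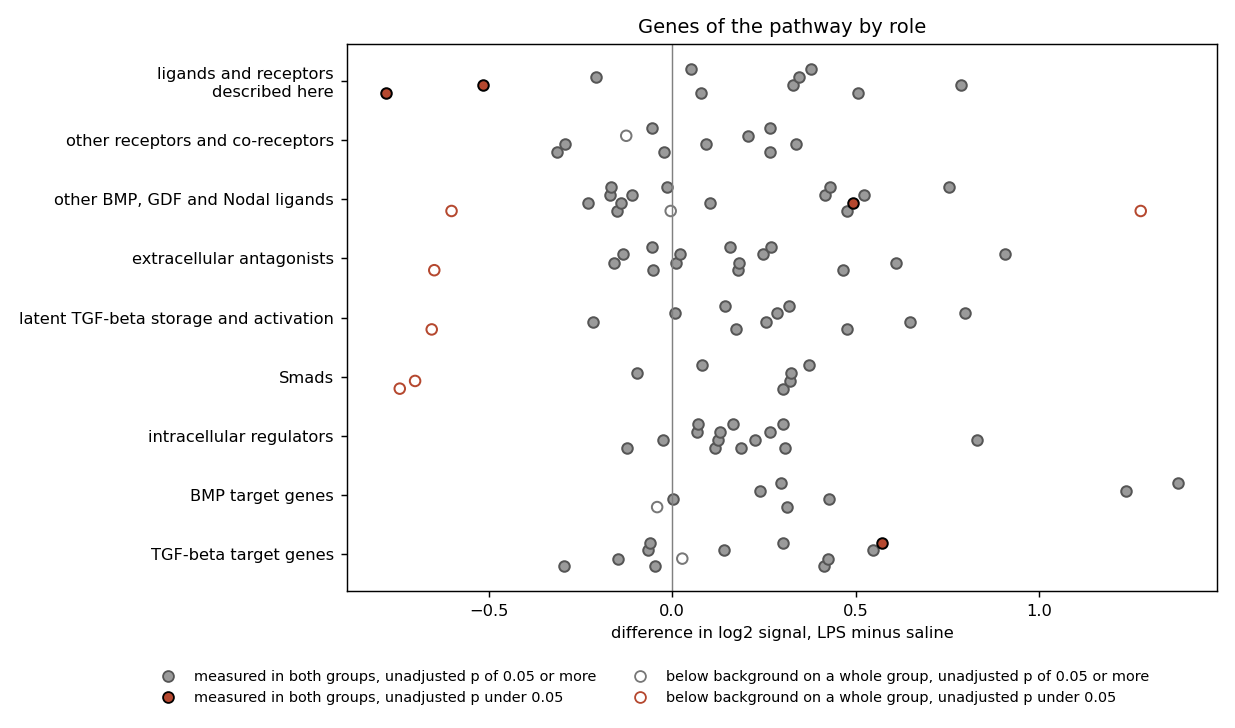
Difference in log2 signal, LPS minus saline, on the horizontal axis for the 10 members (top row) and the 95 other pathway genes with a probe, 1 point per gene, grouped by role. Filled points passed the background criterion in both groups, on 1 array or more of each, and open points did not. Red points had an unadjusted p under 0.05, and all 5 red points to the left of 0 outside the top row are open.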

How the data were processed

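RNA of whole ovaries was measured on 6 single-colour Agilent 8x60K rat arrays, 3 per treatment, grouped by the treatment and replicate number in the labels. The authors deposited the intensity of each spot as written by Agilent Feature Extraction 10.5.1.1, background-subtracted, and a table whose intensity values equal that signal within 0.497%. A normalization for the arrays is not given in the sources used here, and lumi is named in the submitters' processing notes without a role.

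The log2 of the deposited processed signal, minus the 75th percentile over the probes of each array, was used here. Spots with an outlier flag of the software were left out, the remaining spots of each probe were averaged, and at least 2 usable arrays per group were needed. The groups were compared over 30367 probes by lmFit and eBayes of limma 3.58.1 (R 4.3.3), with Benjamini-Hochberg adjustment. A gene was read through its brightest probe. RefSeq accessions named 17998 probes through a table of the GRCr8 assembly, 3408 such accessions were not matched, and 12369 probes had no name. A probe counted as above background on an array when the software's well-above-background flag was set for a share of at least 0.5 of its spots. Where this failed on a whole group, its signals were raised to at least the dimmest signal called above background on the array before the fold was taken. The flag can fail above that level, so such a fold is not a lower limit. No fold is given where both groups failed. The flag was set for 66.3 to 76.0% of spots per array, and no spot was saturated. Signal over background and the number of arrays set the precision.

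The members, the 8 pathway lists and the 10 marker lists were chosen with earlier results of these data known. Named genes were all members and, of each pathway list, those with an unadjusted p under 0.05, or the 2 of smallest p where fewer than 2 passed. The procedure was tested on simulated data.

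Same-numbered arrays of the treatments were taken as pairs, since their deviations from the mean of each treatment correlated at 0.298 (replicate 1), 0.215 (replicate 2) and 0.254 (replicate 3) over all probes, the only basis of the pairing. Over bright probes these were 0.464, 0.242 and 0.312, while LPS replicate 2 correlated at 0.391 with saline replicate 3. The number was fitted as a block as an alternative. In all 20 alternatives were tried, 1 of them, the omission of saline replicates 2 and 3 together, added after the data had been seen.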

Additional observations from a re-analysis of the deposited data

How the results depend on the processing

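Counts are of genes or probes at an unadjusted p under 0.05. The differences of Bmp2, Bmp4, Bmpr1b, Bmpr2 and Tgfb3 kept their direction under all 20 alternatives. The unadjusted p stayed under 0.05 in 14 of the 20 for Bmp2, among them the slide row fit with its single LPS array, and in 9 for Bmpr2. Some alternatives hardly alter the values. The authors' value table, flagged spots kept, dim probes left out and the mean of probes each left Bmp2 at -0.78, as in the main fit. With each array left out, the unadjusted p stayed under 0.05 in 3 of 6 fits for Bmp2 and 0 of 6 for Bmpr2. Adjusted p-values from limma over the alternatives were 0.167 to 0.963 for Bmp2 and 0.217 to 0.963 for Bmpr2. Of the 10 members, 2 had been called. This became 1 with the 75th percentile over bright probes (Bmp2), with the slide row as a block (Bmp2), without saline replicates 2 and 3 (Bmpr2) and with the methods' t-test, where it was Tgfb3, higher with LPS, and Bmp2 and Bmpr2 were lost, and 0 to 4 with each array left out, with 0 when LPS replicate 1 or either of saline replicates 2 and 3 was omitted and 4 when saline replicate 1 was. Of the pathway genes, 8 had been called. This became 4 with quantile normalization, normexp background correction or dim probes left out, 5 without background correction, 5 without saline replicates 2 and 3, and 1 (without saline replicate 2) to 20 (without LPS replicate 1) with each array left out. With the replicate block it was 13. Apart from Bmpr1b, Wwp1, Msx1, Msx2 and Tgfbi, the block changed the call of no other member or pathway gene named by the rule. Over all probes the main count of 5018 became 1844 without normalization between arrays, 1490 with quantile normalization, 1405 without background correction, 1787 with normexp, 1292 without dim probes, 2278 with the slide row as a block, 1761 without saline replicates 2 and 3, and 1603 (without saline replicate 2) to 7196 (without saline replicate 1) with each array left out.

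Some directions turned. Tgfbr2 became -0.00253 with quantile normalization, -0.0713 without background correction, -0.0689 with normexp, -0.13 when slide row was the block, and lay between -0.0817 (without saline replicate 1) and 0.14 with each array left out. Tgfb1 became 0.17 without normalization between arrays, where the median of all probes was 0.34, and became 0.0168 without saline replicate 3 and 0.52 without saline replicates 2 and 3. That last omission gave -0.57 for Bmp7, -0.0367 for Tgfb2 and -0.0190 for Tgfbr1. Bmpr1a was -0.13 with the slide row as a block, and Wwp1 was -0.000159 without background correction. The cause was not tested. Without background correction Bmpr1b, Tgfb2, Bmp6 and Gdf3 differed by 0.14, 0.11, 0.02 and 0.09. Of these, Bmpr1b and Bmp6 were not well above background on 1 saline array and Gdf3 on 3.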
